A study of Mus musculus with 6 samples.

Results

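The 10 genes described here are expressed by hepatocytes around the central vein or respond to Wnt signaling in liver, and were followed in the liver RNA-seq of mice without hepatocyte SHMT2. They were chosen by symbol, *Glul*, *Oat*, *Slc1a2*, *Rhbg*, *Lect2*, *Axin2*, *Lgr5*, *Tbx3*, *Rnf43* and *Znrf3*, and all 10 were found by their Ensembl identifiers among the 49671 genes of the count table. All 10 also passed the filter on low counts that left 16089 genes for testing.

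Hepatocytes of the liver lobule divide their work by position. Endothelial cells of the central vein release Wnt ligands and R-spondin 3, which stabilize β-catenin in the nearest hepatocytes. β-catenin with the DNA-binding factors of the TCF/LEF family then turns on pericentral genes, among them the enzyme that makes glutamine from glutamate and ammonia, while urea synthesis and gluconeogenesis dominate on the periportal side. The pathway also turns on its own brakes, such as *Axin2*, *Rnf43* and *Znrf3*.

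Livers came from male C57BL/6J mice of 2 genotypes with 3 mice each. SHMT2 fl/fl mice, labelled WT, carry *Shmt2* with loxP sites around exons 3 to 12 and no Cre, so the controls are floxed and not unmodified animals. SHMT2 HKO mice, labelled KO, carry the same floxed allele with Cre driven by the Albumin promoter, which targets the gene in hepatocytes. The paper proposes that SHMT2 in non-parenchymal liver cells was not affected. All 6 mice were weaned onto chow at an age of 3 weeks. They were then fed the AMLN diet, high in cholesterol, fructose and fat, for 18 weeks beginning at an age of 4 weeks, and were killed at 22 weeks after a fast. The comparison therefore asks how these genes differ between the genotypes on this diet, and it holds no mice kept on chow.

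Counts on genes ranged from 23090837 to 34089722 per library, so that 3 counts came to 0.0734 to 0.152 CPM (the count scaled to library size, here after TMM, a method that equalizes the bulk of genes between libraries). *Shmt2* was at 94.6, 109 and 93.9 CPM in SHMT2 fl/fl mice 1, 2 and 3, against 24.9, 28.3 and 19.3 CPM in SHMT2 HKO mice 1, 2 and 3, so every library matches its label at the targeted gene. The log2 difference was -2.05 (two-sided exact permutation p = 0.1, which is the smallest for 3 mice against 3). Hepatocyte markers were abundant in every library, where 5 of them summed to 47145 CPM or more. SHMT2 HKO mouse 3 lay nearest to the SHMT2 fl/fl mice on the first principal component of log2 CPM, which held 64.8% of the variance, although its *Shmt2* was the lowest. The labels do not say that the mice came from separate litters or days, so the p-values measure the spread between these mice.

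The pericentral enzymes and transporters differed most. *Glul*, *Oat* and *Slc1a2* were 4.02-, 4.73- and 3.95-fold higher in SHMT2 HKO livers and *Lect2* 2.22-fold higher, while *Rhbg* did not pass the test. *Glul* (ENSMUSG00000026473, chromosome 1 of GRCm38, 153899944 to 153909723, plus strand) encodes glutamine synthetase. Its level was 381, 669 and 409 CPM in SHMT2 fl/fl mice 1, 2 and 3, against 1962, 2502 and 1403 CPM in SHMT2 HKO mice 1, 2 and 3. The lowest SHMT2 HKO mouse was above the highest SHMT2 fl/fl mouse. The log2 fold change was 2.01 (SE 0.30, adjusted p = 0.00284), where every adjusted p for a single gene comes from edgeR (quasi-likelihood F test, Benjamini-Hochberg over 16089 genes). *Glul* kept its call under all 15 alternative settings, with log2 fold changes from 1.22 to 2.31.

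*Oat* (ENSMUSG00000030934, chromosome 7, 132557478 to 132576398, minus strand) encodes ornithine aminotransferase, which turns ornithine into a precursor of glutamate. It was at 132, 209 and 183 CPM in SHMT2 fl/fl mice 1 to 3 and at 722, 1366 and 393 CPM in SHMT2 HKO mice 1 to 3. The genotypes did not overlap, and the SHMT2 HKO mice differed among themselves by 3.48-fold. The fitted difference was 2.24 on the log2 scale (SE 0.43, adjusted p = 0.00772), and the call was lost with no filter on low counts (adjusted p = 0.0638, range over the alternatives 5.65e-08 to 0.0638).

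*Slc1a2* (ENSMUSG00000005089, chromosome 2, 102658659 to 102790784, plus strand) encodes the glutamate transporter GLT-1. Its level was 30.5, 64.7 and 48.2 CPM in SHMT2 fl/fl mice, against 205, 212 and 149 CPM in SHMT2 HKO mice. The gap between the genotypes was wider than the range within either of them. This was a log2 fold change of 1.98 (SE 0.27, adjusted p = 0.00242).

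*Lect2* (ENSMUSG00000021539, chromosome 13, 56542464 to 56548502, minus strand) encodes a secreted protein of hepatocytes and is a known β-catenin target in liver. It was at 51.2, 61.3 and 62.8 CPM in SHMT2 fl/fl mice, against 117, 174 and 98.3 CPM in SHMT2 HKO mice, again without overlap. On the log2 scale the difference was 1.15 (SE 0.21, adjusted p = 0.00635).

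*Rhbg* (ENSMUSG00000104445, chromosome 3, 88242874 to 88254709, minus strand), an ammonium transporter, was low, with 45 to 157 counts per library. Its level was 1.64, 2.60 and 1.64 CPM in SHMT2 fl/fl mice, against 3.44, 7.95 and 1.77 CPM in SHMT2 HKO mice. SHMT2 HKO mouse 3 fell inside the SHMT2 fl/fl range, and the difference did not pass the test (log2 fold change 1.16, SE 0.51, adjusted p = 0.126). Without that mouse the adjusted p was 0.0245 (range over the alternatives 0.0245 to 0.767). A gene on the same strand, *Gm38392*, shares 1190 exonic bases with *Rhbg* and held at most 4 counts in a library, and the assignment of reads between them is not stated. *Glul*, *Slc1a2* and *Axin2* share 116, 189 and 209 exonic bases with genes on the other strand (*Teddm2*, *Gm13872* and *Gm11670*), which held at most 84, 3 and 3 counts in a library.

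The promoters of these genes are shown because they are where TCF/LEF factors would be looked for. Windows from 250 bases before to 50 bases after the start were given for 6 of the 10 genes (RefSeq, GRCm38.p6), and both strands were searched for the TCF/LEF core CTTTGA, whose reverse complement is TCAAAG. Below are the 250 bases before the start, 5′ to 3′ on the gene's strand, with matches in capitals, for 2 genes that hold the core (*Slc1a2*, chr2:102706188-102706437, plus strand, and *Lect2*, chr13:56548539-56548788, minus strand) and 2 that do not (*Glul*, chr1:153899679-153899928, plus strand, and *Axin2*, chr11:108920099-108920348, plus strand).
Slc1a2: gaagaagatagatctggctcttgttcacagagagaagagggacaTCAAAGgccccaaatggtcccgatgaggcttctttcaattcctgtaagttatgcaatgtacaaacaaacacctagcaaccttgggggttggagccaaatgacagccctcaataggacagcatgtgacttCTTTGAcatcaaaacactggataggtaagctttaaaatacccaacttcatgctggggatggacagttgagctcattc
Lect2: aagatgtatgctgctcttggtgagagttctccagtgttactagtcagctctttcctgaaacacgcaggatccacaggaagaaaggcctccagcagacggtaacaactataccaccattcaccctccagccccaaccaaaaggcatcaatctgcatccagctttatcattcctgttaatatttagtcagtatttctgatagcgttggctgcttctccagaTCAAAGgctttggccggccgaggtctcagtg
Glul: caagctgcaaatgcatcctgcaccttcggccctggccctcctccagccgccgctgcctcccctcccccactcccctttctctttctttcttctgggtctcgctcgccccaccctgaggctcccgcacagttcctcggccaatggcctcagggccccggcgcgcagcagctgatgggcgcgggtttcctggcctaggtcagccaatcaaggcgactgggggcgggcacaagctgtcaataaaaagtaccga
Axin2: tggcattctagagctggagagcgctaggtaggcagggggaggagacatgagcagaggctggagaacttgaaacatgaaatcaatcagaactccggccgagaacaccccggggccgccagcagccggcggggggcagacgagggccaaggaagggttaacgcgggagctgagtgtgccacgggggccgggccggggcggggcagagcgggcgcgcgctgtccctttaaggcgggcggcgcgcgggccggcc
*Slc1a2* held 2 matches, beginning at bases -206 and -77 from the start, and *Lect2* held 1, beginning at base -31. No match was found in the windows of *Glul*, *Oat*, *Axin2* or *Rnf43*. Of all 32851 windows in the RefSeq table, 16.0% held at least 1 match and 1.73% at least 2. The share with at least 1 match was 28.6% for the 10 genes (2 of 7 windows). For the lists of other pericentral and of periportal genes described below, it was 28.6% (4 of 14) and 40.0% (4 of 10). A match was therefore not particular to pericentral genes, and the difference between these shares was not tested. The *Slc1a2* window lies at a start inside the annotated gene, downstream of its first base at 102658659. RefSeq starts of *Lect2* and *Glul* also differ from the gene coordinates given above. Positions of matches are counted from the RefSeq start. A match in these letters is a description and was not tested for binding, and TCF/LEF sites further from the start were not searched.

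The Wnt target genes were mixed. *Tbx3* was 2.34-fold higher in SHMT2 HKO livers, *Lgr5* was higher without passing the test, and the feedback genes *Axin2*, *Rnf43* and *Znrf3* showed no called difference. *Tbx3* (ENSMUSG00000018604, chromosome 5, 119670669 to 119684724, plus strand) encodes a T-box transcription factor. Its level was 20.2, 13.9 and 22.0 CPM in SHMT2 fl/fl mice, against 38.5, 65.5 and 27.9 CPM in SHMT2 HKO mice. The genotypes did not overlap, although SHMT2 HKO mouse 3 was close to the SHMT2 fl/fl mice. Its log2 fold change was 1.23 (SE 0.31, adjusted p = 0.0228). This call was lost under 8 of the 15 alternatives. It was lost without SHMT2 fl/fl mouse 1 (adjusted p = 0.0665), mouse 2 (0.0844) or mouse 3 (0.0540) and without SHMT2 HKO mouse 2 (0.0505). It was also lost with library size alone (0.0611), ERCC scaling (log2 fold change 0.34, adjusted p = 0.627), no filter (0.118) and the replicate block (0.0572). Over the 15 alternatives the adjusted p ranged from 0.000591 to 0.627. The antisense gene *Tbx3os1* shares 115 exonic bases with *Tbx3* and had 31, 24 and 40 counts in SHMT2 fl/fl mice, against 328, 165 and 66 in SHMT2 HKO mice. The use of strand in counting is not stated, so reads of the shared bases cannot be told apart.

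*Lgr5* (ENSMUSG00000020140, chromosome 10, 115450311 to 115587780, minus strand), a receptor for R-spondins, had the fewest counts per base of the 10 genes. It was at 2.32, 0.903 and 2.48 CPM in SHMT2 fl/fl mice, against 5.35, 4.71 and 2.64 CPM in SHMT2 HKO mice. The values did not overlap, but SHMT2 HKO mouse 3 and SHMT2 fl/fl mouse 3 were nearly level. The log2 fold change of 1.14 (SE 0.42) did not pass the test (adjusted p = 0.0746). It passed with DESeq2 (0.0276) and without SHMT2 HKO mouse 3 (0.0381), in a range of 0.0276 to 0.805 over the alternatives.

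*Axin2* (ENSMUSG00000000142, chromosome 11, 108920349 to 108950783, plus strand) encodes a scaffold of the complex that degrades β-catenin and is widely used as a readout of Wnt signaling. It was at 9.66, 9.44 and 9.73 CPM in SHMT2 fl/fl mice, against 9.04, 12.3 and 7.83 CPM in SHMT2 HKO mice. The SHMT2 HKO mice lay on both sides of the narrow SHMT2 fl/fl range. The log2 fold change was 0.014 (95% interval -0.42 to 0.45, adjusted p = 0.965), and its sign turned under 8 of the 15 alternatives.

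*Rnf43* (ENSMUSG00000034177, chromosome 11, 87662722 to 87735539, plus strand) and *Znrf3* (ENSMUSG00000041961, chromosome 11, 5276324 to 5444847, minus strand) encode ubiquitin ligases that remove Wnt receptors from the cell surface. *Rnf43* was at 16.8, 14.0 and 23.5 CPM in SHMT2 fl/fl mice, against 21.4, 25.2 and 15.2 CPM in SHMT2 HKO mice. *Znrf3* was at 11.3, 11.7 and 11.2 CPM in SHMT2 fl/fl mice, against 8.66, 10.5 and 13.6 CPM in SHMT2 HKO mice. The genotypes overlapped for both genes. Log2 fold changes were 0.18 for *Rnf43* (95% interval -0.37 to 0.73, adjusted p = 0.604) and -0.062 for *Znrf3* (95% interval -0.48 to 0.36, adjusted p = 0.825). These intervals, like that of *Axin2*, exclude the 4.02-fold difference fitted for *Glul* and leave room for smaller differences in either direction.

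**Figure D1:**
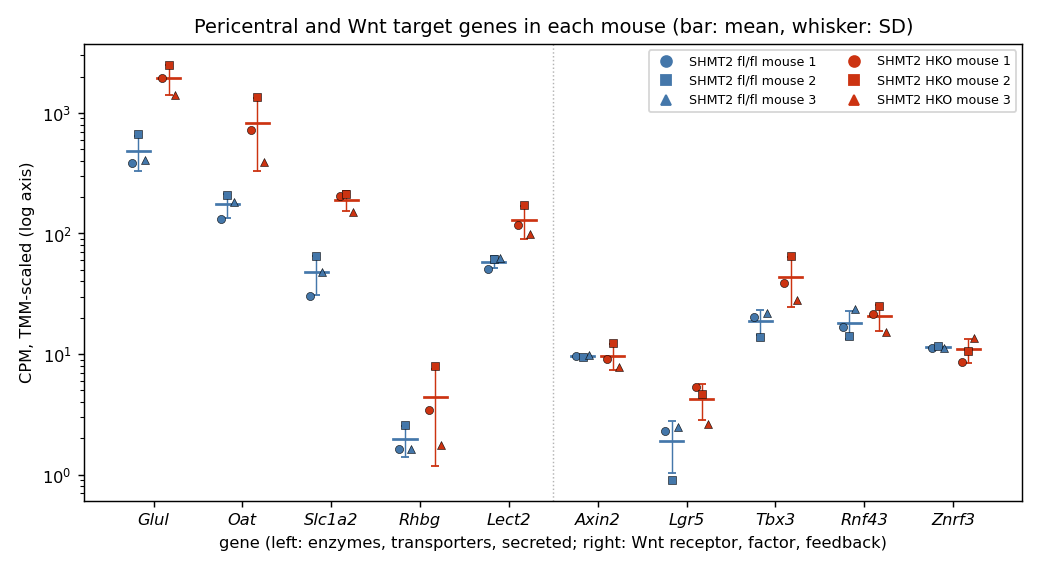
Level of each of the 10 genes in each mouse, in CPM after TMM scaling on a log axis, with the mean as a bar and the SD as a whisker (n = 3 mice per genotype). The 3 SHMT2 HKO mice lie above the 3 SHMT2 fl/fl mice for *Glul*, *Oat*, *Slc1a2*, *Lect2*, *Lgr5* and *Tbx3*, and SHMT2 HKO mouse 3 is the lowest of its group for 9 of the 10 genes.

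Of the 10 genes, 5 were called higher and 0 lower in SHMT2 HKO livers by edgeR, and 6 had values that did not overlap, all of them higher. At an unadjusted p under 0.05 the counts were 6 higher and 0 lower, DESeq2 called 6 higher and 0 lower, and limma-voom 5 higher and 0 lower. Among all tested genes, 12.5% were called higher and 16.5% lower (29.0% in all), and 46.9% had values that did not overlap, 21.9% higher and 25.0% lower. The median log2 fold change was 1.16 over the 10 genes and 0.027 over all tested genes. Within SHMT2 HKO mice, mouse 2 was the highest for 8 of the 10 genes and mouse 3 the lowest for 9. Without SHMT2 HKO mouse 3 the number called higher was 7, and without SHMT2 HKO mouse 2 it was 4.

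**Figure D2:**
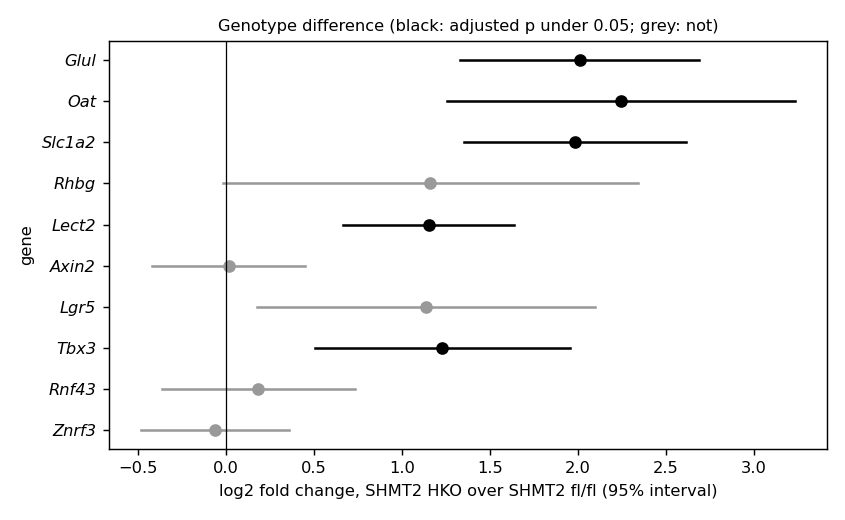
Log2 fold change of SHMT2 HKO over SHMT2 fl/fl livers from edgeR for each of the 10 genes, with the 95% interval as a line (n = 3 mice per genotype). *Glul*, *Oat* and *Slc1a2* sit near 2, *Lect2*, *Tbx3*, *Lgr5* and *Rhbg* between 1.14 and 1.23, and *Axin2*, *Rnf43* and *Znrf3* close to 0.

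Levels of the 10 genes were compared with each other after division by exon length. In SHMT2 fl/fl livers the order in CPM per kilobase was *Glul* (146 ± 47.7, SD, n = 3), *Oat* (74.1 ± 16.7), *Lect2* (63.6 ± 6.88), *Slc1a2* (3.64 ± 1.30), *Tbx3* (2.82 ± 0.65), *Rnf43* (2.76 ± 0.74), *Axin2* (1.75 ± 0.028), *Znrf3* (1.45 ± 0.036), *Rhbg* (1.01 ± 0.28) and *Lgr5* (0.185 ± 0.085). *Oat* overlapped *Lect2*, and *Tbx3* overlapped both *Slc1a2* and *Rnf43*. In SHMT2 HKO livers the first 6 genes were in the same order, with overlap between *Glul* and *Oat* and between *Oat* and *Lect2*, from *Glul* at 588 ± 165 (SD, n = 3) and *Oat* at 350.3 ± 210 to *Slc1a2* at 14.4 ± 2.62 CPM per kilobase. *Rhbg*, at 2.26 ± 1.65, had a higher mean there than *Axin2* and *Znrf3*, but its mice overlapped those of *Rnf43*, *Axin2* and *Znrf3*.

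The scaling of the libraries entered every fold change, because the TMM factors were 1.13 to 1.21 in SHMT2 fl/fl mice and 0.802 to 0.984 in SHMT2 HKO mice. Over all genes, the median log2 fold change shifted by -0.42 with library size alone and by -0.72 when libraries were scaled to the ERCC spike-ins, which are synthetic RNAs. Spike-ins held 1.47%, 1.84% and 1.42% of counts in SHMT2 fl/fl mice 1, 2 and 3, against 2.75%, 2.31% and 1.35% in SHMT2 HKO mice 1, 2 and 3. The share thus differed among the SHMT2 HKO mice, and mouse 3 of that genotype had the lowest share of all libraries. *Glul*, *Oat* and *Slc1a2* had log2 fold changes of 1.22, 1.33 and 1.22 with ERCC scaling, which is 1.91, 2.02 and 1.91 above the median gene. *Slc1a2* then had an adjusted p of 0.0557 (range over the alternatives 4.2e-11 to 0.0557) and *Lect2* a log2 fold change of 0.35 with an adjusted p of 0.593 (range 7.96e-06 to 0.593). *Axin2* and *Rnf43* were at -0.78 and -0.66 with ERCC scaling, near the shift of the median gene, and neither passed the test.

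**Figure D3:**
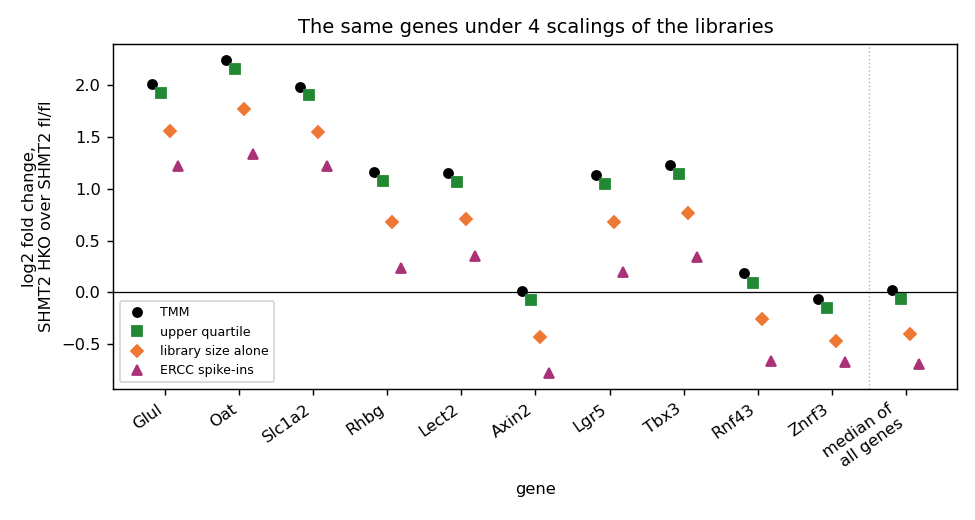
Log2 fold change of the 10 genes and of the median of all tested genes under TMM, upper-quartile, library-size and ERCC scaling. The points move down together from TMM to ERCC scaling, and *Glul*, *Oat* and *Slc1a2* stay above 1.2 while *Axin2* moves from 0.014 to -0.78.

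Ratios within a library do not depend on scaling. *Gls2* encodes the liver glutaminase of periportal hepatocytes, which breaks glutamine down. The ratio of *Glul* to *Gls2* in CPM was 1.60, 2.16 and 1.12 in SHMT2 fl/fl mice, against 6.37, 7.63 and 7.18 in SHMT2 HKO mice. Every SHMT2 HKO mouse was above every SHMT2 fl/fl mouse. The log2 ratio was 0.65 ± 0.47 (SD, n = 3) in SHMT2 fl/fl and 2.82 ± 0.13 (SD, n = 3) in SHMT2 HKO livers, a difference of 2.16 (two-sided exact permutation p = 0.1).

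Ratios of the other genes to *Axin2* and to *Alb*, the albumin gene, were added after the values were seen, 19 in all. Relative to *Axin2*, 6 genes were higher in every SHMT2 HKO mouse than in every SHMT2 fl/fl mouse, by 2.03 for *Glul*, 2.10 for *Oat*, 2.04 for *Slc1a2*, 1.12 for *Lect2*, 1.23 for *Lgr5* and 1.18 for *Tbx3* on the log2 scale. Relative to *Alb*, *Glul*, *Oat* and *Slc1a2* were higher by 1.47, 1.54 and 1.49, *Lect2* by 0.57 and *Tbx3* by 0.63, again without overlap. The ratios of *Axin2* and *Rnf43* to *Alb* did not overlap in the other direction and differed by -0.55 and -0.35. Each of these ratios had p = 0.1 in the exact permutation test (two-sided), which is 0.146 after adjustment over the 19 ratios, so none could pass the threshold at this number of mice.

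**Figure D4:**
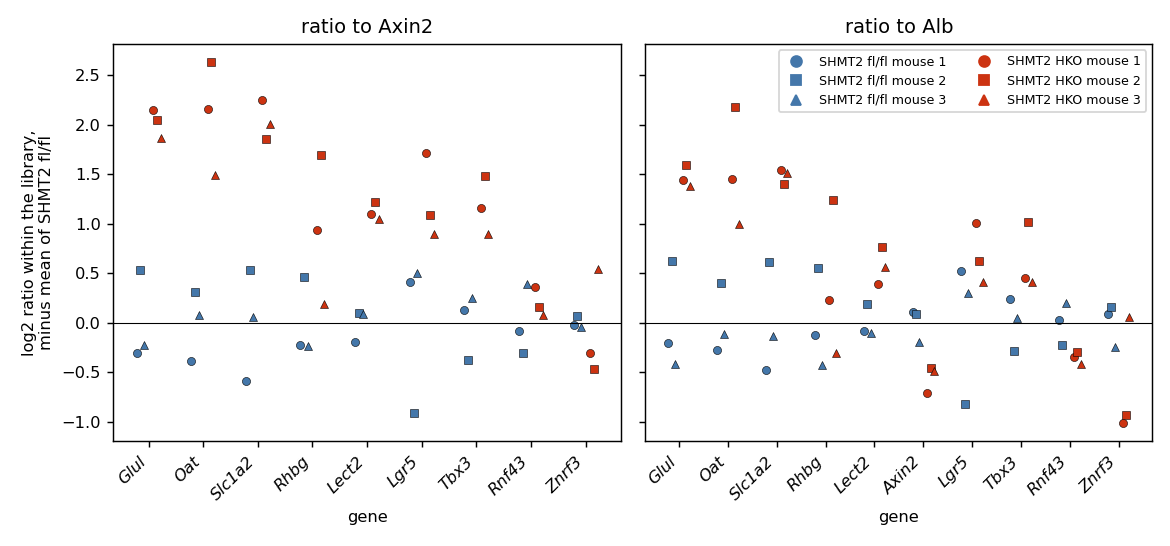
Log2 ratio of each gene to *Axin2* (left) and to *Alb* (right) within each library, minus the mean of the SHMT2 fl/fl mice, with 1 point per mouse. SHMT2 HKO points for *Glul*, *Oat* and *Slc1a2* average 2.03, 2.10 and 2.04 on the left and 1.47, 1.54 and 1.49 on the right.

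Of 20 other pericentral genes, 13 were called higher and 0 lower, with a median log2 fold change of 1.13. For this list and those below, the shares over all tested genes were 12.5% called higher and 16.5% lower. The count of 0 lower also held at an unadjusted p under 0.05 and with DESeq2 and limma-voom, which called 15 and 13 higher. The largest called change was that of *Cyp2c37*, a cytochrome P450, at 6.83, 15.4 and 10.5 CPM in SHMT2 fl/fl mice, against 147, 184 and 42.8 CPM in SHMT2 HKO mice (log2 fold change 3.52, adjusted p = 0.00565). *Cyp2e1*, the ethanol-inducible cytochrome P450, rose by 1.82 on the log2 scale (adjusted p = 0.0026). *Nr1i3*, which encodes the nuclear receptor CAR, rose by 1.77 (adjusted p = 0.00369), and *Lhpp*, a phosphatase gene, by 1.76 (adjusted p = 0.0103). With no filter on low counts the calls of *Cyp2c37* and *Lhpp* were lost (adjusted p = 0.0509 and 0.0737), and with ERCC scaling those of *Lhpp* and *Nr1i3* (0.218 and 0.194, the highest over the alternatives). *Slc38a3*, a glutamine transporter, was at 0.75 and did not pass edgeR's test (adjusted p = 0.0856, range over the alternatives 0.0039 to 0.768), but passed with DESeq2 and without SHMT2 HKO mouse 3. With ERCC scaling 2 of the 20 were called higher and 1 lower, and 1 was called lower without SHMT2 HKO mouse 2 or mouse 3.

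Of 16 periportal genes, 3 were called higher and 1 lower, with a median of 0.20. *Cdh1*, which encodes E-cadherin and is also strong in bile duct cells, was lower (log2 fold change -2.02, adjusted p = 0.0017). *Pigr*, the polymeric immunoglobulin receptor gene, was at 1.43 (adjusted p = 0.00675), *Cyp2f2*, a periportal cytochrome P450, at 0.96 (adjusted p = 0.0181), and the urea cycle gene *Otc* at 0.74 (adjusted p = 0.0362), which turned to -0.13 with ERCC scaling. The call of *Otc* was lost under 9 of the 15 alternatives, among them the omission of each mouse other than SHMT2 HKO mouse 3, and that of *Cyp2f2* without SHMT2 fl/fl mouse 1 or mouse 2. *Ass1*, of the urea cycle, and *Pck1*, of gluconeogenesis, did not pass the test (0.12 and -0.079). The number called higher was 1 without SHMT2 fl/fl mouse 1 or mouse 2 and 6 without SHMT2 HKO mouse 3, and the number called lower was 3 without SHMT2 HKO mouse 2. The difference between the pericentral and periportal lists was not tested.

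Around the reactions of GLUL and OAT, 20 of 23 listed genes of glutamate, ornithine and ammonia handling were tested, with 2 called higher, 2 lower and a median of 0.12. *Prodh*, which degrades proline, was higher (log2 fold change 1.37, adjusted p = 0.00621), and lost its call with ERCC scaling (0.53, adjusted p = 0.426). The mitochondrial aspartate aminotransferase gene *Got2* was also higher (0.69, adjusted p = 0.019). *Got2* turned to -0.079 with ERCC scaling and lost its call without any 1 SHMT2 fl/fl mouse or without SHMT2 HKO mouse 2 (adjusted p over the alternatives 0.000151 to 0.892). *Aldh18a1*, of proline and ornithine synthesis, and *Slc1a5*, a neutral amino acid transporter, were lower (-1.33 and -1.07, adjusted p = 0.00875 and 0.00141). *Slc38a4*, an amino acid transporter, and *Glud1*, glutamate dehydrogenase, did not pass edgeR's test (log2 fold changes 0.39 and 0.46). Over the alternatives their adjusted p ranged from 0.0289 to 0.777 and from 0.00232 to 0.86, and DESeq2 called both higher, limma-voom *Glud1*. Of the list, DESeq2 called 5 higher and 3 lower, and limma-voom 3 in each direction. Without SHMT2 HKO mouse 3, 4 genes were called in each direction, and without SHMT2 HKO mouse 2, 1 higher and 4 lower.

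Upstream of β-catenin, the genes of Wnt ligands, R-spondins and their secretion showed no called rise. Of 25 listed, 16 were tested, 0 were called higher and 5 lower, with a median of -0.80, and no gene was higher at an unadjusted p under 0.05, with DESeq2 or with limma-voom. The ligand genes *Wnt7b*, *Wnt10a* and *Wnt4* had log2 fold changes of -3.28, -2.66 and -1.56, and *Wls*, the carrier of Wnt proteins to the cell surface, one of -1.63 (adjusted p = 0.00374, 0.00543, 0.00121 and 0.00111). *Wnt7b* was at 2.74, 8.99 and 4.41 CPM in SHMT2 fl/fl mice, against 0.806, 0.354 and 0.472 CPM in SHMT2 HKO mice. The ligand genes *Wnt2* and *Wnt9b*, which are also markers of central vein endothelium, were not lower. They had log2 fold changes of 0.60 and 0.18 with overlap of the genotypes and no call (adjusted p = 0.178 and 0.831 from edgeR). *Rspo3*, the R-spondin of central vein endothelium, was at 6.97, 5.23 and 5.27 CPM in SHMT2 fl/fl mice, against 8.53, 6.58 and 6.73 CPM in SHMT2 HKO mice. The genotypes overlapped for *Rspo3* (log2 fold change 0.32, adjusted p = 0.268), and its sign turned with library size alone and with ERCC scaling.

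Of 17 Wnt receptor genes 15 were tested, with 3 called higher, 5 lower and a median of -0.40. Called higher were *Fzd8*, *Fzd4* and *Lgr4* (log2 fold changes 1.08, 0.69 and 0.61, adjusted p = 0.0143, 0.00374 and 0.0147). With library size alone and with ERCC scaling 0 were called higher. The summed level of the 17 genes was 384 to 408 CPM in SHMT2 fl/fl and 423 to 451 CPM in SHMT2 HKO mice. *Ror2*, *Fzd2*, *Fzd9* and *Ror1* had the largest called differences, with log2 fold changes of -2.93, -1.98, -1.92 and -1.32. *Ror2* and *Fzd9* were low, with 1 to 4 and 2 to 9 counts per SHMT2 HKO library. Their calls were lost without SHMT2 fl/fl mouse 2 or mouse 3 or SHMT2 HKO mouse 2, and for *Fzd9* also without SHMT2 fl/fl mouse 1. The co-receptor genes *Lrp5* and *Lrp6* did not pass edgeR's test (-0.066 and 0.33), and *Lrp6* passed with DESeq2 alone (adjusted p over the alternatives 0.0398 to 0.662). The number called higher was 1 without SHMT2 fl/fl mouse 2, and the number called lower was 3 without SHMT2 fl/fl mouse 2 or mouse 3 or SHMT2 HKO mouse 2.
Of 24 intracellular components 0 were called higher and 4 lower, with a median of -0.082, while 2 were higher at an unadjusted p under 0.05 and 0 with DESeq2 or limma-voom. The 4 of 24 called lower are near the share of 16.5% over all tested genes. The 4 were *Pygo1*, *Csnk1e*, *Bcl9* and *Pygo2*, at -1.32, -0.90, -0.59 and -0.40, and of these *Csnk1e*, a casein kinase gene, kept its call under all 15 alternatives. The number called lower was 1 without SHMT2 fl/fl mouse 2, and 2 without SHMT2 fl/fl mouse 3 or SHMT2 HKO mouse 2. *Ctnnb1*, which encodes β-catenin itself, was at 236, 241 and 243 CPM in SHMT2 fl/fl mice, against 197, 179 and 224 CPM in SHMT2 HKO mice. The SHMT2 HKO mice were all below the SHMT2 fl/fl mice, but the difference did not pass the test (log2 fold change -0.26, adjusted p = 0.172, range over the alternatives 0.0174 to 0.386).

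Of 21 Wnt inhibitors and other targets 14 were tested, with 1 called higher, 3 lower and a median of -0.40. *Nkd2*, an inhibitor of Dishevelled, was at -3.46 on the log2 scale, *Sfrp1*, a secreted Wnt antagonist, at -2.42 and *Dkk3*, of the Dickkopf family, at -2.21. *Sp5*, a transcription factor gene directly induced by β-catenin, rose by 1.01 (adjusted p = 0.0281), a call lost without any 1 SHMT2 fl/fl mouse or without SHMT2 HKO mouse 2 (range over the alternatives 0.00501 to 0.808). *Notum*, a secreted Wnt deacylase, was at 0.53 and *Ccnd1*, cyclin D1, at -0.97, and neither passed edgeR's test (adjusted p = 0.0586 and 0.0666). Over the 15 alternatives *Ccnd1* was called lower under 7 (range 0.00737 to 0.241) and *Notum* higher under 3, namely DESeq2, no filter and the omission of SHMT2 HKO mouse 3 (range 0.00509 to 0.683). Without SHMT2 HKO mouse 3, 3 genes of this list were called higher and 5 lower.

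**Figure D5:**
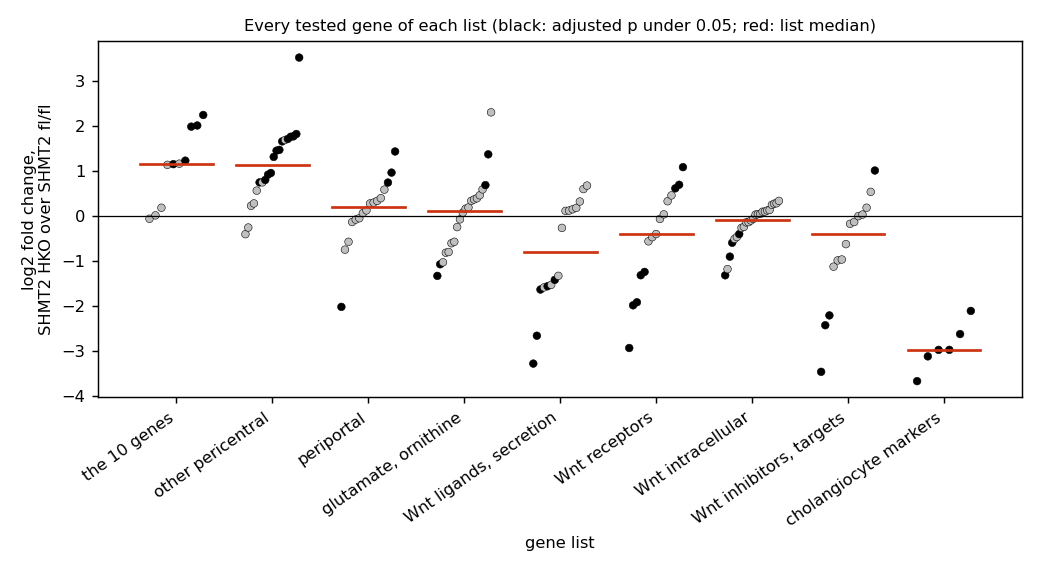
Log2 fold change of every tested gene of each list, in black where the adjusted p was under 0.05 and in grey where it was not, with the list median in red. The medians are 1.16 for the 10 genes, 1.13 for other pericentral genes, 0.20 for periportal genes, -0.80 for Wnt ligands and secretion and -2.97 for cholangiocyte markers.

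Markers of liver cell types differed between these libraries as well, and in whole liver, fewer cells of a type and less RNA per cell cannot be told apart. The summed level of 5 hepatocyte markers was 47145 to 58177 CPM in SHMT2 fl/fl and 58765 to 88868 CPM in SHMT2 HKO mice, with 1 of 5 called higher (*Ttr*, the transthyretin gene, log2 fold change 0.82, adjusted p = 0.0498), which was -0.055 with ERCC scaling. At an unadjusted p under 0.05 and with DESeq2, 4 of the 5 were higher, and with limma-voom 1. *Ttr* lost its call under 11 of 15 alternatives, among them the omission of each mouse other than SHMT2 HKO mouse 3, without which 4 of 5 were called higher. All 6 cholangiocyte markers were lower, and their sum went from 956 to 1188 CPM down to 128 to 246 CPM, with log2 fold changes of -3.67, -3.12, -2.97 and -2.97 for *Cftr*, *Epcam*, *Krt19* and *Krt7*. Of 8 stellate cell and fibroblast markers 5 were lower and 0 higher (sums of 1266 to 1362 against 293 to 769 CPM), with 3 lower without SHMT2 fl/fl mouse 2 or mouse 3 or SHMT2 HKO mouse 2, and 2 lower with no filter. The same direction held for 4 of 7 lymphocyte markers (sums of 39.4 to 58.6 against 16.4 to 24.1 CPM).
Macrophage markers were split, with 4 of 7 lower and 2 higher, *Timd4* and *Clec4f* of Kupffer cells (log2 fold changes 3.57 and 2.83). Of 8 endothelial markers 2 were higher, *Clec4g* and *Stab2* of sinusoidal cells (1.93 and 0.55), and 1 lower, *Emcn* (-1.31). With ERCC scaling 0 of the 8 were called higher, with *Clec4g* at 1.16 (adjusted p = 0.104) and *Stab2* at -0.15. Without SHMT2 HKO mouse 1, 4 of the 8 were higher. Of 6 markers of central vein endothelium, a list that shares 3 genes with the ligands, 0 were called in either direction by edgeR, with sums of 24.0 to 25.3 and 26.9 to 29.9 CPM. At an unadjusted p under 0.05 the count was 1 higher and 0 lower, with DESeq2 1 higher and 0 lower and with limma-voom 0 in both directions, while 1 was called higher without SHMT2 fl/fl mouse 3 and 1 lower without SHMT2 HKO mouse 3. No marker was at 0 in every library. The part of these shifts in the values of the 10 genes was not tested. In the ratios to *Alb* above, the differences of *Glul*, *Oat* and *Slc1a2* were smaller than in the fit by 0.53, 0.70 and 0.49 on the log2 scale. These ratios take away the difference of *Alb* itself (log2 fold change 0.56 in the fit and -0.26 with ERCC scaling). They do not measure the share of hepatocytes.

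The genes whose pattern over the 6 mice lay nearest to that of *Glul* were *Orm3*, *Slc1a2* and *Nr1i3*, out of 13780 candidates with a mean of at least 1 CPM. Nearness was the root mean square difference of log2(CPM + 0.5) after each gene was centered on its mean, and it was 0.148, 0.191 and 0.193 for these genes, against a median of 1.07 over all candidates. *Slc1a2* and *Nr1i3* are themselves pericentral genes, and *Orm3* belongs to the orosomucoid family of plasma proteins. The pattern spans both genotypes, so nearness largely restates the genotype difference. The log2 fold changes of *Orm3*, *Slc1a2* and *Nr1i3* were 1.97, 1.98 and 1.77, against 2.01 for *Glul*. Shared variation among mice of a genotype was not tested. For *Axin2* the nearest with names were *Gm2a* (0.0507), an activator of ganglioside breakdown in lysosomes, and *Slc22a15* (0.0686), behind ENSMUSG00000063897 (0.0485), which has no name in the tables used here. The median over all candidates was 0.328 for *Axin2*.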

How the data were processed

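Liver RNA-seq of 3 SHMT2 fl/fl and 3 SHMT2 HKO mice was analysed, and other experiments of the study were not used here. The authors made NEBNext Ultra libraries, sequenced read pairs on a HiSeq, trimmed with Trimmomatic 0.36, aligned to GRCm38 plus ERCC with STAR 2.5.2b, and counted the reads that hit a gene uniquely. The submitters' processing notes also name featureCounts and Subread 1.5.2. The deposited values are these raw counts, without normalization. The use of strand and the handling of overlapping genes are not given in the sources used here. WT in the labels was taken to mean SHMT2 fl/fl, and KO to mean SHMT2 HKO.

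The 92 ERCC entries were kept out of library sizes. Genes were filtered with filterByExpr, scaled by TMM and tested with the quasi-likelihood F test (two-sided, robust) of edgeR 4.0.16 in R 4.3.3, with calls at an adjusted p under 0.05. Names, coordinates and exon lengths came from GENCODE vM21, which matched 49326 of 49671 identifiers. DESeq2 1.42.0, limma-voom (limma 3.58.1), 3 other scalings, 2 other filters, a replicate block, non-robust dispersions and the omission of each mouse in turn made up 15 alternatives. The script was tested on simulated data. All pairs of libraries of a genotype differed by more than sampling noise. Named beside the 10 genes are, per list, up to 4 genes with the largest called change and up to 2 with the highest mean CPM. *Wnt2*, *Wnt9b*, *Fzd4*, *Fzd8* and *Lgr4* were named in addition and are not among the 65 other named genes counted below. The members and the 14 other lists were chosen with earlier results of these data known.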

Additional observations from a re-analysis of the deposited data

How the results depend on the processing

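Over 15 alternatives, the 10 genes gave 150 values, of which 125 kept direction and side of the threshold, 11 turned sign, 11 lost and 3 gained a call. For 65 other named genes, 840 of 966 values kept both, 24 turned sign, 77 lost a call with the same sign and 25 gained one. Of the 24 that turned, 4 lost a call as well (*Otc*, *Got2*, *Ttr* and *Stab2* with ERCC scaling). The number of the 10 called higher (5) was 2 with ERCC scaling, 3 with no filter, and 4 to 7 without single mice. Of all genes, 2012 were called higher and 2651 lower, against 539 and 4923 with library size alone and 107 and 2759 with ERCC scaling. Without single mice, 805 to 2521 were higher and 1621 to 3076 lower. Counts of lists moved too. With library size alone and ERCC scaling, the higher calls were 11 and 2 of other pericentral genes (13), 1 and 0 of periportal genes (3), 0 and 0 of Wnt receptors (3) and 1 and 0 of glutamate and ornithine genes (2), and the lower calls were 7 and 8 of Wnt ligands (5), 11 and 2 of intracellular components (4), 6 and 5 of inhibitors and targets (3), 4 and 3 of periportal genes (1) and 4 and 4 of glutamate and ornithine genes (2). Leaving out a mouse leaves 2 in its group and changes how many genes pass the filter.

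Among the 10 genes, *Axin2* was at -0.028 with limma-voom, -0.43 with library size alone, -0.076 with upper quartile, -0.78 with ERCC scaling, -0.0099 with no filter, -0.029 with at least 10 counts in every library, -0.010 with the replicate block and from -0.19 to 0.13 without single mice. *Rnf43* was at -0.26 with library size alone and -0.66 with ERCC scaling, and *Znrf3* ranged from -0.27 to 0.086 without single mice. With library size alone *Lrp6* was at -0.088, *Ass1* at -0.33, *Slc38a4* at -0.048, *Kit* at -0.040 and *Rspo3* at -0.11. With ERCC scaling *Lrp6* was at -0.36, *Notum* at -0.28, *Slc38a3* at -0.16, *Otc* at -0.13, *Ass1* at -0.72, *Got2* at -0.079, *Slc38a4* at -0.40, *Glud1* at -0.26, *Ttr* at -0.055, *Alb* at -0.26, *Apoa1* at -0.14, *Stab2* at -0.15, *Kit* at -0.30 and *Rspo3* at -0.45. The cause of these moves was not tested. Without single mice *Ass1* ranged from -0.097 to 0.33, *Pck1* from -0.31 to 0.082 and *Lrp5* from -0.28 to 0.14.

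The replicate numbers were not treated as pairs in the main fit. Deviations of same-numbered mice from their group means had correlations of -0.046, 0.0125 and -0.077, and 1 of 6 mice correlated best with its own number. These values cannot exclude a shared litter or day, which the labels do not give. With the replicate block 4 of the 10 genes were called higher, without *Tbx3* (log2 fold change 1.16, adjusted p = 0.0572, range 0.000591 to 0.627), and 1397 genes higher and 2187 lower in all. The ratio of *Glul* to *Gls2* differed by 1.92 to 2.39 and *Shmt2* by -2.17 to -1.90 on the log2 scale without single mice. For low genes such as *Rhbg* and *Lgr5*, counts were few, and p-values and intervals cover these 6 mice.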

Other observations

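Further markers of non-hepatocyte cells were named by the fixed rule. *Kit*, a receptor tyrosine kinase gene, was at 6.34, 7.07 and 5.92 CPM in SHMT2 fl/fl mice, against 9.25, 6.63 and 9.13 CPM in SHMT2 HKO mice, with overlap and no call (log2 fold change 0.38, adjusted p = 0.174 from edgeR). Log2 fold changes of *Lyz2*, *Trem2* and *Csf1r* were -1.71, -1.76 and -0.69. The call of *Trem2* was lost without SHMT2 fl/fl mouse 1 or mouse 3 or SHMT2 HKO mouse 2, and with no filter (adjusted p = 0.131). The T and natural killer cell genes *Cd3e*, *Cd8a* and *Nkg7* had log2 fold changes of -2.43, -2.39 and -2.39. *Ptprc*, the pan-leukocyte gene CD45, fell by 1.19 (adjusted p = 0.0133) and lost its call without SHMT2 fl/fl mouse 1 or SHMT2 HKO mouse 2 (adjusted p = 0.0524 for both, range over the alternatives 0.000264 to 0.0524). *Lum*, *Col3a1* and *Pdgfrb* of stellate cells and fibroblasts were at -2.38, -1.72 and -1.46, and *Spp1* of the cholangiocyte list at -2.62. *Col1a1* was at -1.86 with its call lost without any 1 SHMT2 fl/fl mouse or without SHMT2 HKO mouse 2. With no filter the calls of *Lum*, *Col3a1* and *Col1a1* were lost (adjusted p = 0.0593, 0.0769 and 0.121). The albumin gene *Alb* itself was at 0.56 (adjusted p = 0.132) and *Apoa1* at 0.69 (adjusted p = 0.0646), with neither called by edgeR, while DESeq2 and the omission of SHMT2 HKO mouse 3 called both higher (range over the alternatives 0.0157 to 0.586 and 0.00389 to 0.771), and the fit with no filter *Apoa1*.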
